A study of Mus musculus with 29 samples.

Results

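The comparison described here asked what loss of Mysm1 changed in CD150-positive hematopoietic stem and progenitor cells of mice that also lacked Puma. All libraries labelled CD150POS and Mysm1-KO Puma-KO were set against all libraries labelled CD150POS and Mysm1-WT Puma-KO. This gave 9 of the 29 libraries of the series: 7 from Mysm1-/-Puma-/- mice, with 4 names in B (B1, B3, B5 and B6) and 3 in P (P1 to P3), and 2 from Mysm1+/+Puma-/- mice, named C1-4 and C2-5. Puma was absent on both sides, so the genotypes differed only at Mysm1. With only 2 control libraries, a change was called kept only if it passed the test against both controls together and against each control alone.

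All mice were C57BL/6 and 8 to 12 weeks old, and the labels give the sex as pooled male and female. Bone marrow was depleted of lineage-positive cells and sorted as Lin-cKit+Sca1+ CD150+ cells. For comparison, the same population was sequenced in 4 libraries from Mysm1-/-Puma+/- mice, which the series uses in place of Mysm1-/- mice, and in 4 from wild-type mice. The CD150-negative cells of the same gate came from 3 Mysm1-/-Puma-/- and 3 Mysm1+/+Puma-/- libraries. The labels do not say whether libraries of 1 group came from separate animals, so p-values measure the spread between libraries, part of which may be technical. The labels do not say which exons the mutant alleles remove.

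MYSM1 is a chromatin-bound deubiquitinase that removes ubiquitin from histone H2A, and mice without it have few lymphocytes and a failing stem cell pool. p53 is a transcription factor that turns on genes for cell cycle arrest, DNA repair, its own feedback control and cell death. PUMA, the product of Bbc3, is a BH3-only protein that neutralises BCL2-like survival proteins, and through it p53 can kill blood progenitors. A Puma-null background removes that death protein while leaving the rest of the p53 output in place.

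Promoter windows of the kept p53 targets are shown because these genes were higher together. Each covers 250 bases upstream of a RefSeq gene start (GRCm38.p6, a different build from the mm9 of the count tables). Capitals mark exact matches to the p53 half-site pattern RRRCWWGYYY, where R is A or G, W is A or T and Y is C or T. The pattern reads the same on both strands, so a single search covers both. Stretches that miss it at any base stay in lower case. A full site was taken as a pair of half-sites separated by 0 to 13 bases.

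Cdkn1a, chr17:29090729-29090978, plus strand: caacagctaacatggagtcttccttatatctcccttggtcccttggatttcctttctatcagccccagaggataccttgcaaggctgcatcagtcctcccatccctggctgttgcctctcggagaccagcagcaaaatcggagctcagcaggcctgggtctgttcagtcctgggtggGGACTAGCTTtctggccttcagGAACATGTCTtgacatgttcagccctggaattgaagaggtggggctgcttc

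Bbc3, chr7:16309333-16309582, plus strand: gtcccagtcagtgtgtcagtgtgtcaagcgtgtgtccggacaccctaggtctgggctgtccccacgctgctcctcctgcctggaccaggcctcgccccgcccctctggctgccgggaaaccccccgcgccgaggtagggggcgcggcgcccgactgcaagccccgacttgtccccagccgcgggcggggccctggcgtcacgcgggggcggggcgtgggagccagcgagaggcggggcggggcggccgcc

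Psrc1, chr3:108383554-108383803, plus strand: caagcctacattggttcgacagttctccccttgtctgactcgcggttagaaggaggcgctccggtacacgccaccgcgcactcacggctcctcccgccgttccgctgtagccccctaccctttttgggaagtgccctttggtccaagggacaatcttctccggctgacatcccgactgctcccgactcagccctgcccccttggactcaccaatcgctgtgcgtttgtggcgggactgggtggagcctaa

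The first Cdkn1a window held 2 half-sites, GGACTAGCTT starting 73 bases and GAACATGTCT starting 51 bases upstream of the start, with 12 bases between them. The letters tgacatgttc that follow GAACATGTCT directly miss the pattern at their opening base and were not marked. The second Cdkn1a window, the 3 Bbc3 windows and the 2 Psrc1 windows held no match. Over all 32851 windows, 2341 (7.13%) held a half-site and 21 (0.0639%) a full site. Of the 19 genes that passed the test as higher, 12 had a window. In 4 of these, Cdkn1a, Ccng1, Bax and Exoc4, some window held a half-site. Of all 27025 genes with a window, 2216 (8.2%) held a half-site in some window. A match is a description of the letters and no evidence of binding. Tnfsf4 and Mmp2 have no entry in the table.

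The 9 libraries held between 12309296 (C2-5) and 25281099 (B3) gene counts. Male Ddx3y transcripts (73.8 to 143 CPM) and few Xist transcripts (1.44 to 13.1 CPM) were counted in all 9. None of the 9 had the high Xist (348 CPM) and low Ddx3y (0.589 CPM) of A2, a Mysm1-/-Puma+/- library. The 9 thus gave no sign of the female part that the labels name. The sorted-cell markers Kit, Ly6a, Slamf1, Procr, Mecom and Hlf were read in every library, with summed levels of 902 to 1160 CPM without Mysm1 and of 929 and 712 CPM in C1-4 and C2-5. Transcripts of 1467 odorant, taste and vomeronasal receptor genes, which are mostly silent in blood cells, served as a measure of background reads. The 800 of them that were tested summed to between 617 and 6590 CPM without Mysm1, 4090 in C1-4 and 8420 in C2-5. C2-5 thus had the highest background of the 9. The median log2 fold change of these 800 genes was -0.998. When all genes were split by level into 4 equal bins, the lowest bin had a median of -1.10 and the highest 0.19, so low genes leaned toward lower values without Mysm1. The lean was larger with C2-5: against C1-4 alone the receptor genes had a median of 0 and the lowest bin -0.25, and against C2-5 alone -1.32 and -1.52. The part of background reads in any single result was not tested except where a value is given.

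Mysm1 itself did not pass the test. Its levels were 84.3, 86.3, 72.3 and 87.4 CPM in B1, B3, B5 and B6, and 76.6, 67.7 and 87.7 CPM in P1 to P3, against 132 and 120 CPM in C1-4 and C2-5. All 7 libraries lay below both controls, with 80.3 ± 8.08 (SD, n = 7) against 126 ± 8.35 (SD, n = 2). The log2 fold change was -0.65 (SE 0.14) with an adjusted p of 0.0835. Each gene had a single count, which for Mysm1 covered a length of 7419 bases (gene span mm9 chromosome 4, 94608731 to 94645791, minus strand). Transcripts of a mutant allele that are still made are thus counted too. Neither Mysm1 nor Bbc3 counts therefore check the genotypes. DESeq2 and 3 other settings did call Mysm1 lower, with log2 values over all settings from -0.815 to -0.574. In CD150-positive cells with Puma the edgeR value was -0.19 (SE 0.13, adjusted p = 0.668). In CD150-negative Puma-null cells it was -0.38 (SE 0.15, adjusted p = 0.327).

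Loss of Mysm1 raised 5 genes against each Puma-null control library: Bbc3, Cdkn1a, Psrc1, Tnfsf4 and Mmp2. These are 0.0239% of 20944 genes tested, and no gene was kept as lower. Their levels without Mysm1 were several times those in either control, and no library of the 7 overlapped with a control. These genes were picked by this same comparison, so the separation is no independent support. The first 3 are known p53 targets. In bulk RNA, more transcript per cell and more cells that hold it cannot be told apart.

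Bbc3 lies on chromosome 7 (mm9, 16894965 to 16903554, plus strand) and overlaps no other gene. It was read at 16.3, 19.9, 18.6 and 15.5 CPM in the B libraries and 25.2, 18.1 and 22.0 CPM in the P libraries, in the order given above, against 2.68 CPM in C1-4 and 2.10 CPM in C2-5. Reads of the gene thus remained in mice labelled Puma-/-, and were higher without Mysm1 in each of the 7. The mean was 19.4 ± 3.36 (SD, n = 7) against 2.39 ± 0.412 CPM (SD, n = 2), a log2 fold change of 3.01 (SE 0.30, adjusted p = 3.41e-05). Against C1-4 alone the value was 2.86 (adjusted p = 0.0179) and against C2-5 alone 3.20 (adjusted p = 0.0022).

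Cdkn1a encodes p21, the CDK inhibitor through which p53 halts the cell cycle (chromosome 17, 29227924 to 29237667, plus strand). Its levels were 16.96, 24.7, 27.1, 22.7, 20.8, 22.2 and 28.1 CPM in the same order of libraries, and 1.82 and 1.01 CPM in the controls. Both controls were low, and the lowest library without Mysm1 stood far above them. The means were 23.2 ± 3.81 and 1.42 ± 0.574 CPM. The log2 fold change of 4.00 (SE 0.49, adjusted p = 0.000194) was the largest of the kept genes. It was 3.68 against C1-4 alone (adjusted p = 0.0488) and 4.51 against C2-5 alone (adjusted p = 0.0111).

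Psrc1 encodes a microtubule-binding protein of the mitotic spindle and is a p53 target (chromosome 3, 108186757 to 108191149, plus strand). It was read at 55.6, 79.4, 53.4, 69.8, 91.3, 77.7 and 74.9 CPM without Mysm1 and at 17.2 and 10.5 CPM in the controls. It was the most abundant of the 5 by CPM, which are not scaled by gene length. The log2 fold change was 2.37 (SE 0.27, adjusted p = 0.000114), with 2.08 against C1-4 alone (adjusted p = 0.0451) and 2.77 against C2-5 alone (adjusted p = 0.0022).

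Tnfsf4, which encodes the co-stimulatory ligand OX40L (chromosome 1, 163325581 to 163348337, plus strand), was read at 15.3, 22.2, 18.2, 13.5, 24.2, 18.4 and 17.5 CPM against 3.69 and 2.33 CPM. Its log2 fold change was 2.60 (SE 0.29, adjusted p = 0.000114), with adjusted p = 0.0451 against C1-4 alone and 0.00252 against C2-5 alone. Mmp2, a gelatinase that cuts extracellular matrix (chromosome 8, 95351227 to 95377316, plus strand), was read at 28.7, 38.3, 24.7, 26.3, 47.7, 32.3 and 42.9 CPM against 5.32 and 3.89 CPM. Its log2 fold change was 2.89 (SE 0.35, adjusted p = 0.000194), with adjusted p = 0.0488 against C1-4 alone and 0.0111 against C2-5 alone. Both genes code for proteins that act outside the cell or at its surface, and neither had a library within the range of the other group.

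**Figure D1:**
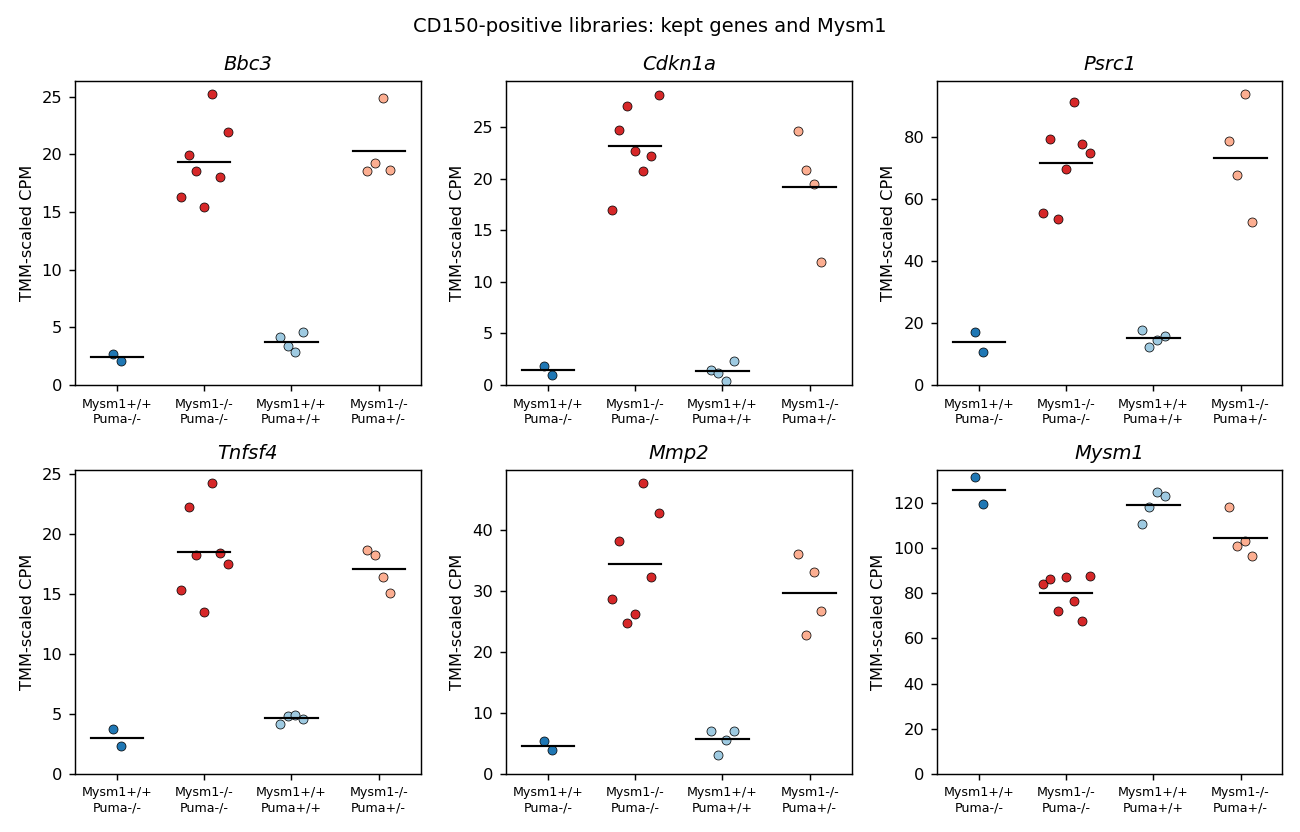
TMM-scaled CPM (linear axes from 0) of the 5 kept genes and Mysm1 in all 17 CD150-positive libraries, 1 point per library, with a line at the mean of each genotype. In the 5 kept genes the 7 Mysm1-/-Puma-/- libraries stand above both Mysm1+/+Puma-/- libraries, and in Mysm1 they stand below them.

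The adjusted p-values against C1-4 alone lay just under 0.05 for 4 of the 5 genes, so being kept depended on which other libraries were in the fit. Bbc3 was kept when any 1 of the 7 libraries was left out. Only Bbc3 was kept without B1, B3, P1, P2 or P3, Bbc3 and Tnfsf4 without B6, and all 5 without B5. Without the P and W libraries, whose names form a second series, no gene was kept, though all 5 passed against both controls together (Bbc3 2.85, Cdkn1a 3.96, Psrc1 2.20, Tnfsf4 2.49 and Mmp2 2.65 on the log2 scale). No Mysm1+/+Puma-/- library carries a P name, so that series has no control of its own. DESeq2 kept 15 genes, the same 5 among them, with 12 higher and 3 lower (Mysm1, Rpl23 and Rpl36a). limma voom with quality weights kept only Ccng1. With the background receptor level as a covariate the same 5 genes were kept. The fit with C1-4 alone called 5 genes (0.0232% of those tested) and the fit with C2-5 alone 7 (0.0323%). The count of 0 kept lower genes from edgeR compares with 47 genes (0.224%) lower, and 142 (0.678%) higher, at an unadjusted p under 0.05 in all 3 fits.

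**Figure D2:**
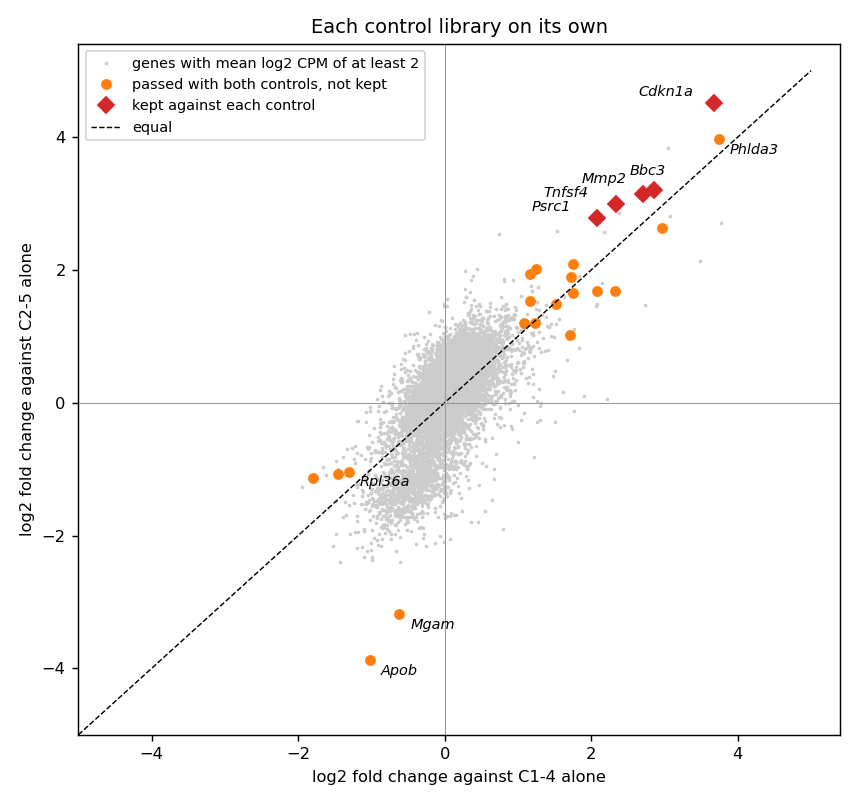
Log2 fold change of each gene with C1-4 as the only control (x axis) against that with C2-5 as the only control (y axis), for genes whose log2 CPM averaged 2 or more. Diamonds are the 5 kept genes and circles the other genes that passed with both controls, among which Mgam and Apob lie far from the line of equal change.

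Against both controls together, 24 genes passed (0.115% of those tested), 19 of them higher (0.0907%) and 5 lower (0.0239%). At an unadjusted p under 0.05, 4.9% of genes were higher and 4.85% lower. Apart from the 5 kept genes these were 14 higher and 5 lower, most of them named here after their values were seen. Ccng1, a cyclin-like p53 target that acts on the Mdm2 loop, was read at 248, 318, 225, 226, 233, 256 and 258 CPM against 88.8 and 89.7 CPM. Its log2 fold change of 1.496 (SE 0.20, adjusted p = 0.000595) was similar against each control, where it just missed the threshold (adjusted p = 0.0614 and 0.0638). Phlda3, which restrains AKT and is a p53 target, was read at 14.2, 22.4, 24.1, 14.7, 20.1, 13.3 and 19.2 CPM against 1.37 and 1.17 CPM (log2 fold change 3.84, SE 0.54, adjusted p = 0.0014). Bax, the pore-forming death effector, was read at 43.9, 41.5, 44.8, 35.9, 33.5, 37.4 and 34.1 CPM against 17.4 and 13.4 CPM (1.33, SE 0.22, adjusted p = 0.00804). In all 3 genes, which were picked because they passed, the groups did not overlap.

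Other genes passed with higher adjusted p-values. Sesn2, a stress protein that lowers mTORC1 activity, was higher by 1.90 (log2, SE 0.37, adjusted p = 0.0444), and Zmat3, an RNA-binding p53 target, by 1.32 (adjusted p = 0.0469). Ak1, an adenylate kinase, was higher by 1.57 (adjusted p = 0.0129). Its span overlaps Eng on the same strand, so reads of the 2 genes may be mixed. Slc19a2, a thiamine transporter, was higher by 1.70 (adjusted p = 0.00792), Serpine2, a secreted protease inhibitor, by 1.80 (adjusted p = 0.0199) and Exoc4, an exocyst subunit, by 1.14 (adjusted p = 0.0123). 9030617O03Rik was higher by 2.79 (adjusted p = 0.00857), and its reads may include those of overlapping genes. Fam212b (1.97), Gria3 (1.49) and Prrg4 (1.21) also passed. Gm16197, a long noncoding RNA, passed with 1.86 (adjusted p = 0.0442). It lies at 29194419 to 29215906 on the minus strand of chromosome 17, upstream of Cdkn1a. With the P and W libraries left out, Sesn2 (adjusted p = 0.112), Zmat3 (0.0918), Ak1 (0.0818) and Exoc4 (0.0914) did not pass. Neither did Fam212b, Gria3, Prrg4 and Gm16197, while Slc19a2, Serpine2 and 9030617O03Rik did.

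The 5 lower genes included a pair of ribosomal protein genes. Rpl36a was read at 326, 295, 294, 273, 239, 240 and 226 CPM against 676 and 558 CPM (log2 fold change -1.19, SE 0.18, adjusted p = 0.00475). Rpl22l1, the paralog of Rpl22, was read at 18.2, 15.1, 30.6, 17.7, 14.5, 21.7 and 13.6 CPM against 52.1 and 39.4 CPM (-1.29, SE 0.23, adjusted p = 0.0221). With the P and W libraries left out, neither passed (adjusted p = 0.0611 for Rpl36a and 0.143 for Rpl22l1). Gm15421, a pseudogene inside Orc5, was lower by 1.51 on the log2 scale (adjusted p = 0.0129).

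Mgam and Apob, an intestinal maltase-glucoamylase and a lipoprotein of liver and gut, were high in 1 control library only. Apob was read at 0.786 to 6.08 CPM without Mysm1, at 6.83 CPM in C1-4 and at 49.5 CPM in C2-5. Mgam was read at 1.93 to 4.67 CPM without Mysm1, at 5.67 CPM in C1-4 and at 33.5 CPM in C2-5. Without C2-5 neither passed, with log2 values of -1.01 and -0.62 in place of -3.06 and -2.41. In CD150-positive cells with Puma the fitted value was -1.36 for Mgam (adjusted p = 0.29) and -0.17 for Apob.

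The 4 lists of p53 target genes, sorted by role, held 54 different genes tested, of which 9 rose (16.7%, against 0.0907% of all genes) and none fell. Of the 9, Zmat3, Ak1 and Sesn2 did not pass without the P and W libraries. In 23 of the 54 (42.6%, against 4.91% of all genes) all 7 libraries lay above both controls, and in 1 they lay below. The median log2 fold change was 0.55, against -0.09 over all genes tested. The p53 response was known from earlier results of these data, so this count describes the list and is not independent support.

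Among the 14 death targets, 3 rose, Bbc3, Bax and Zmat3 (against 0.0907% of all genes). In 8 of the 14 all 7 libraries lay above both controls (against 4.91%). Their summed level was 695 to 910 CPM (median 763) without Mysm1, and 519 and 663 CPM in C1-4 and C2-5. Aen, an apoptosis-enhancing nuclease, was read at 73.6 to 123 CPM against 60.5 and 51.1 CPM but did not pass (0.97, adjusted p = 0.0592). Pmaip1, which encodes the BH3-only protein NOXA and was named after its values were seen, was uneven: it stood at 3.88, 7.97, 4.92 and 3.15 CPM in the 4 B libraries, at 11.5, 23.0 and 16.4 CPM in the 3 P libraries, and at 1.97 and 1.40 CPM in the controls (2.57, adjusted p = 0.321). A list of 19 other members of the Bcl2 family had none that passed, and neither had the 20 caspases and their regulators.

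Among the 11 arrest targets, Cdkn1a, Psrc1 and Ccng1 rose (against 0.0907% of all genes). In 6 of the 11 all 7 libraries were above both controls (against 4.91%). The list's median was 1.03, the highest of the p53 lists, and its sum was 388 to 533 CPM without Mysm1 against 181 and 159 CPM. Gtse1, which ties p53 to the cell cycle, lay above both controls in every library (21.4 to 32.1 CPM against 12.0 and 11.3 CPM) but did not pass (1.15, adjusted p = 0.0835). Without the P and W libraries the list's median was 0.64.

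Of the 11 feedback genes only Phlda3 rose (against 0.0907% of all genes). Mdm2, the ubiquitin ligase that degrades p53 and is itself a p53 target, was read at 130, 143, 98.6, 114, 148, 138 and 127 CPM against 82.1 and 68.6 CPM. All 7 libraries were above both controls, and the change of 0.77 did not pass (adjusted p = 0.264). Of the 18 repair and metabolic targets, Ak1 and Sesn2 rose (against 0.0907% of all genes). Ddit4, an mTORC1 inhibitor (1.24, adjusted p = 0.205), and Dcxr, a sugar reductase (1.25, adjusted p = 0.285), lay above both controls in all 7 libraries without passing.

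Mmp2 and Tnfsf4 belong to a list of 10 surface and secreted genes that earlier work on these data had picked as higher without Mysm1, so its direction is no independent result. With Serpine2, 3 of the 10 passed (against 0.0907% of all genes), and 8 had all 7 libraries above both controls (against 4.91%). The summed level was 226 to 293 CPM against 60.3 and 63.7 CPM. A list of 15 genes picked in the same way as lower without Mysm1 had none that passed. In 2 of them all 7 libraries lay below both controls (against 6.74% of all genes). Trib2, a pseudokinase, was read at 9.12 to 20.8 CPM against 41.4 and 40.8 CPM and did not pass (-1.59, adjusted p = 0.321).

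**Figure D3:**
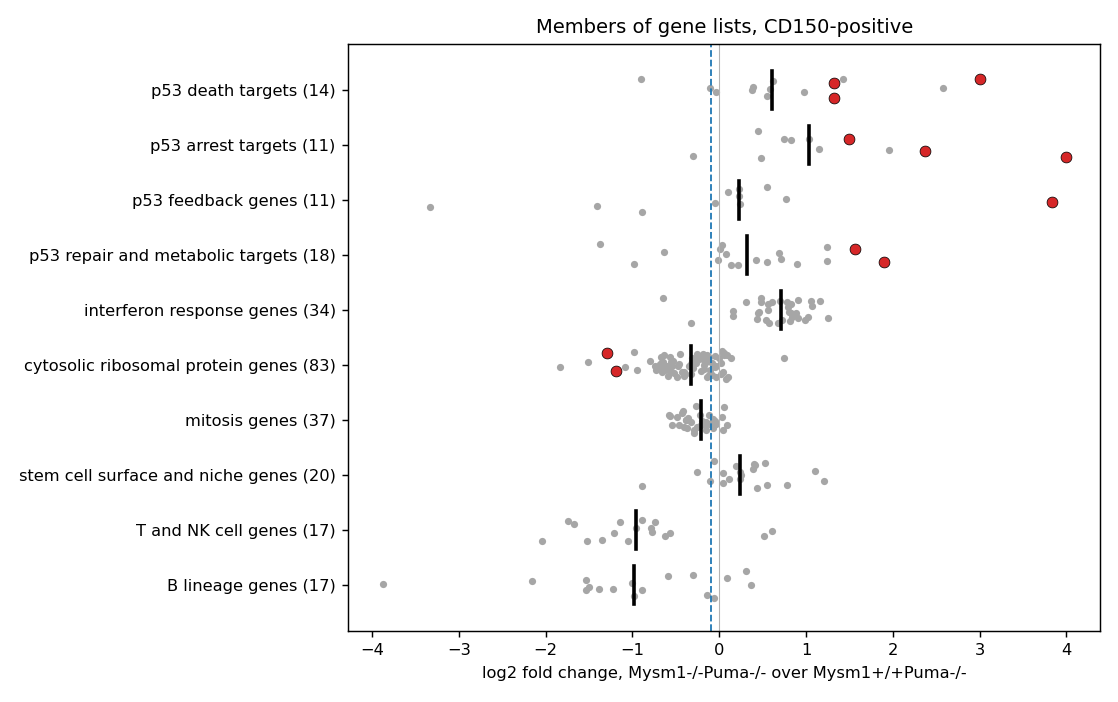
Log2 fold change (x axis) of each tested member of 10 gene lists, Mysm1-/-Puma-/- over Mysm1+/+Puma-/-, with the number of members in brackets. Red points passed at an adjusted p under 0.05, black bars are list medians, and the dashed line is the median of all genes tested. Red points appear only in the 4 p53 lists, to the right, and in the ribosomal list, to the left.

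Interferon response genes lay mostly above the controls without any of them passing. These genes are switched on by STAT proteins after interferon signalling and include guanylate-binding GTPases and antiviral factors. In 24 of 34 all 7 libraries were above both controls, against 4.91% of all genes, and in none were they below. The median log2 fold change was 0.71, and the summed level was 1930 to 2550 CPM without Mysm1 against 1500 and 1450 CPM, with no overlap. Igtp, an interferon-inducible GTPase, was read at 87.4, 96.8, 82.0, 63.1, 76.9, 87.5 and 80.5 CPM against 39.9 and 42.7 CPM (0.99, adjusted p = 0.101). Irgm2, of the same GTPase family (0.82, adjusted p = 0.273), Bst2, which tethers virus particles (0.81, adjusted p = 0.321), and Trim30a (0.80, adjusted p = 0.321) lay above both controls in every library. By edgeR none of the 34 passed and 19 were higher at an unadjusted p under 0.05, against 4.9% of all genes. DESeq2 and limma voom each called 1. Over the other settings the median stayed between 0.59 and 0.79, and 22 to 29 members lay above the controls left in the fit. Some of those settings kept a single control, and 855 to 3737 of all genes lay above, against 1028 in the main fit. The 22 to 29 are thus not comparable with the 24. Of the 4 bins of all genes by level, the highest had 10.6% above both controls.

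Cytosolic ribosomal protein genes lay below or within the range of the controls. Of 83 tested, Rpl36a and Rpl22l1 fell (against 0.0239% of all genes) and none rose. In 25 all 7 libraries were below both controls, against 6.74% of all genes, and in none above. The median log2 fold change was -0.32, and the summed level was 55800 to 71600 CPM (median 58100) without Mysm1 against 82300 CPM in C1-4 and 70300 CPM in C2-5, so B1 and B3 lay above C2-5 in the sum. Rpl35a was read at 291, 254, 309, 246, 158, 164 and 189 CPM against 469 and 421 CPM (-0.95, adjusted p = 0.188), lowest in the 3 P libraries. Rpl35 was read at 442 to 656 CPM against 1017 and 910 CPM (-0.79, adjusted p = 0.223). The median was -0.41 against C1-4 alone, -0.19 against C2-5 alone and -0.53 without the libraries of high background. In that last setting 60 of 83 lay below the remaining control. Over the alternative settings 1279 to 6263 of all genes lay below, against 1411 in the main fit. The 60 and the 25 are therefore not comparable. The number called lower moved from 2 to 19 by DESeq2, 7 by limma voom and 0 without the P and W libraries. Ribosomal protein genes have many near-identical copies, and how the authors counted reads with several matches is not given in the sources used here, so single members are uncertain. The 75 mitochondrial ribosomal protein genes had none that passed.

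**Figure D4:**
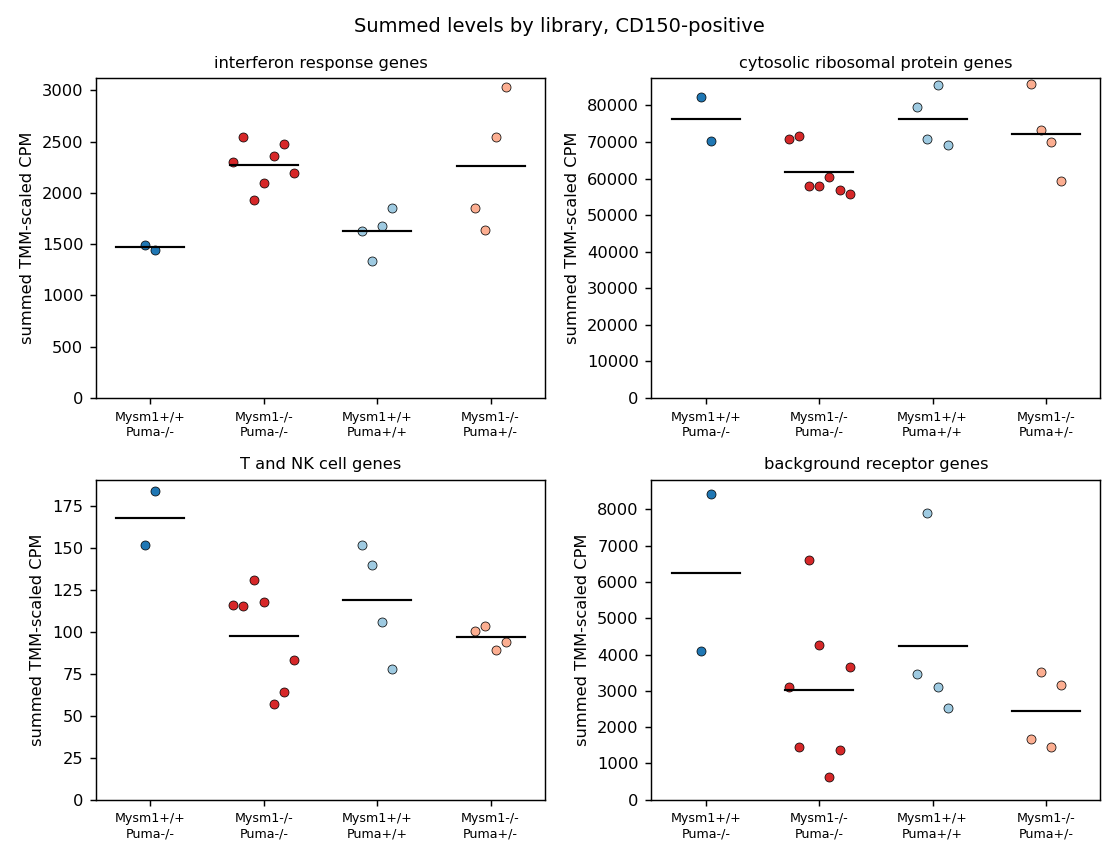
Summed TMM-scaled CPM (linear axes from 0) of 4 gene lists in the 17 CD150-positive libraries, 1 point per library, with a line at each genotype's mean. Interferon response genes do not overlap between the 7 Mysm1-/-Puma-/- and the 2 Mysm1+/+Puma-/- libraries, ribosomal protein genes do, T and NK cell genes lie lower in the 7, and the background receptor genes are highest in C2-5.

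Markers that define the sorted stem cells did not pass the test in either direction. Slamf1, which encodes CD150, was read at 16.7, 20.2, 15.4, 18.6, 16.6, 11.2 and 12.2 CPM against 19.4 and 18.6 CPM (-0.26, SE 0.24). Kit, the stem cell factor receptor, was read at 755, 710, 585, 685, 810, 821 and 720 CPM against 594 and 485 CPM (0.43, SE 0.20, adjusted p = 0.499). Procr (0.25), Hlf (0.34) and Mecom (0.11), a receptor and transcription factors of long-term stem cells, overlapped between the groups. Ly6a, which encodes Sca1, was the exception in range: 22.8, 21.4, 23.3, 13.8, 9.65, 10.6 and 15.4 CPM against 9.21 and 6.30 CPM, without passing (1.10, adjusted p = 0.367). Ly6a is also inducible by interferon. Of 20 stem cell surface and niche genes, Kit, Ly6a, Slamf1 and Procr included, none passed, and 7 (against 4.91% of all genes) lay above both controls in all libraries. Beside Ly6a these included the integrin Itga6 (0.53), the angiopoietin receptor partner Tie1 (0.55) and the SLAM family receptor Cd244 (1.21). The 22 stem cell transcription factors had none that passed and a median of 0.23, which was 0.08 against C1-4 alone and 0.49 against C2-5 alone.

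Markers of other blood cells were read in all libraries. The 17 T and NK cell genes summed to 57.1 to 131 CPM without Mysm1 against 152 and 184 CPM, with no overlap. In 6 of them all 7 libraries were below both controls (against 6.74% of all genes, and 10.4% and 11% of the 2 lowest bins by level), in 1 above, and the median was -0.96. Without the libraries of high background 11 of the 17 lay below the remaining control. The number of all genes below moved with the setting too (1279 to 6263, against 1411 in the main fit). The 11 and the 6 are thus not comparable. Cd3d, a subunit of the T cell receptor complex, was read at 7.16 to 19.6 CPM against 21.9 and 32.3 CPM (-0.96, adjusted p = 0.399), and Lck, its kinase, at 5.70 to 11.03 CPM against 15.8 and 14.0 CPM. The 17 B lineage genes had a median of -0.99 and sums from 116 to 2710 CPM against 869 and 521 CPM. The plasma cell gene Igj, named after its values were seen, was read at 12.5 CPM in P3 to 2450 CPM in B1. None of these genes passed. The 2 lowest bins of all genes by level had medians of -1.10 and -0.67. Against C1-4 alone these bins stood at -0.25 and -0.24, while the T and NK cell genes stood at -0.85 and the B lineage genes at -0.63. The parts of lymphoid cells and of background reads in them were not tested.

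Erythroid genes (851 to 1840 CPM against 1350 and 1240), granulocyte and monocyte genes (798 to 1260 against 1080 and 943) and stromal and endothelial genes (139 to 168 against 129 and 163) overlapped between the groups in their sums. Mast cell genes summed to 58.0 to 131 CPM against 101 and 98.4 CPM. Macrophage and dendritic genes lay higher in sum, at 255 to 508 CPM against 237 and 219 CPM, but their median was 0.13 (-0.01 against C1-4 alone). In all libraries 2 of 15 lay above both controls and 1 below (against 4.91% and 6.74% of all genes). Siglech, a receptor of plasmacytoid dendritic cells, was the lower 1, at 6.95 to 35.9 CPM against 48.9 and 57.0 CPM (-1.24, adjusted p = 0.452). The class II antigen-presentation gene H2-Eb1 was read at 61.5, 46.5, 34.4, 22.4, 20.9, 45.5 and 26.4 CPM against 10.4 and 9.88 CPM (1.86, adjusted p = 0.0835), and H2-Ab1 at 41.3 to 110 CPM against 33.3 and 29.6 CPM (1.13, adjusted p = 0.322). Class II genes are interferon-inducible as well as markers of antigen-presenting cells. Of 23 platelet and megakaryocyte genes none passed. In every library 1 lay above both controls and 1 below (against 4.91% and 6.74% of all genes). Without the P and W libraries 12 lay above and 1 below. Over the alternative settings 855 to 3737 of all genes lay above, against 1028 in the main fit. The 12 is therefore not comparable with the count from all 7 libraries. With all 7 libraries the higher gene was Selp, the platelet adhesion molecule P-selectin (14.4 to 33.0 CPM against 8.00 and 9.41 CPM, 1.26, adjusted p = 0.205).

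Mitosis genes lay within or below the range of the controls. Of the 37 none passed, 7 had all 7 libraries below both controls (against 6.74% of all genes, and 2.25% of the highest bin by level) and the median was -0.21. Without the P and W libraries 14 lay below, and without those of high background 17 lay below the remaining control. Across the alternative settings 1279 to 6263 of all genes lay below, so these counts are not comparable with the 7. Prc1, a spindle midzone protein, was read at 101 to 136 CPM against 168 and 159 CPM (-0.47, adjusted p = 0.49), and Birc5, which encodes survivin, at 44.3 to 61.1 CPM against 72.2 and 72.3 CPM (-0.43, adjusted p = 0.497). The 35 DNA replication genes had 1 above and 1 below (against 4.91% and 6.74% of all genes). Imprinted growth genes had a median of -0.81, which was -0.54 against C1-4 alone. In 4 of 14 all libraries lay below both controls (against 6.74% of all genes), with Meg3 at 3.54 to 10.9 CPM against 12.2 and 25.9 CPM (-1.45, adjusted p = 0.321). The immediate early genes Fos and Jun separated the naming series: Fos stood at 11.5, 62.3 and 120 CPM in P1, P2 and P3 and at or below 3.54 CPM in the other 6 libraries.

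Of 39 lists, 8 held a gene that passed: the 4 p53 lists, the surface and secreted genes, the ribosomal protein genes, and the lists of G1 regulators and stress response genes through Cdkn1a and Sesn2. The other 31 lists held 726 different genes tested. At an unadjusted p under 0.05, 46 of these genes were higher and 29 lower, against 4.9% and 4.85% of all genes. The 31 lists held no gene that passed by edgeR and at most 1 per list by DESeq2. These included the lists of H2A ubiquitin enzymes, factors linked to MYSM1, lymphoid priming genes, heat shock genes, Fanconi and recombination genes, respiratory chain subunits, SOCS genes, Eph receptors and ephrins, Hox genes, snoRNA host genes and clustered histone genes. Some of their medians differed between the controls: that of the Eph receptors and ephrins was -0.90 with both, 0.04 against C1-4 alone and -1.39 against C2-5 alone. The clustered histone genes stood at -0.31, -0.34 and -0.26 in the same order.

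The same contrast was read in CD150-positive cells that carried Puma, as 4 Mysm1-/-Puma+/- against 4 wild-type libraries, which share no library with the comparison above. There Bbc3 rose by 2.43 (SE 0.23), Cdkn1a by 3.81 (SE 0.37), Psrc1 by 2.27 (SE 0.21), Tnfsf4 by 1.89 (SE 0.22) and Mmp2 by 2.38 (SE 0.26) on the log2 scale. All 19 genes that rose on the Puma-null background also rose with Puma, and 3 of the 5 that fell also fell. The 22 shared genes were 91.7% of the 24 called here and 23.2% of the 95 called with Puma (0.454% of genes tested). The Puma-null comparison had 2 controls and the other 4, so their numbers of calls are not comparable in size. The contrast with Puma differs in Puma dose as well, since its Mysm1-null mice were heterozygous. Its Mysm1-null library A2 also had high Xist (348 CPM) and low Ddx3y (0.589 CPM), unlike all other CD150-positive libraries. Both contrasts came from the same fit and share each gene's estimate of spread, so the overlap is not from independent tests.

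The difference of the Mysm1 effect between the backgrounds did not pass for any gene. By edgeR 0 of 20944 genes passed and 309 (1.48%) had an unadjusted p under 0.05, and DESeq2 and limma voom called 0. For Bbc3 the effect was larger on the Puma-null background by 0.57 and for Cdkn1a by 0.19, with an adjusted p of 0.9999 for both. Tnfsf4 differed by 0.71 (adjusted p = 0.9999). The smallest p belonged to Plxdc2, a plexin-domain protein, at -0.07 (SE 0.30) on the Puma-null background and -1.80 (SE 0.27) with Puma, a difference of 1.74 (SE 0.42, adjusted p = 0.9999). The next were Tpm4, a tropomyosin (-0.09 and 1.40), Mdga1 (0.32 and -0.61) and S100a6, a calcium-binding protein (-0.35 and 1.38). A difference that misses the threshold does not show that the effects were equal.

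In CD150-negative cells of the same Puma-null genotypes (3 against 3 libraries, 285 genes called, 1.35%), 17 of the 19 higher genes rose and 3 of the 5 lower genes fell. The 20 shared genes were 83.3% of the 24 and 7.02% of the 285. Cdkn1a rose there by 3.59 (SE 0.23), Psrc1 by 2.26 (SE 0.13), Bbc3 by 2.18 (SE 0.28), Mmp2 by 2.12 (SE 0.21) and Tnfsf4 by 4.61 (SE 0.60). Fam212b (0.66, adjusted p = 0.426) and Zmat3 (0.27, adjusted p = 0.878) were the 2 that did not pass in CD150-negative cells. The difference between populations was 0.73 for Bbc3, -2.08 for Tnfsf4 and 0.94 for Zmat3, none past the adjusted threshold (adjusted p = 0.651, 0.6477 and 0.651).

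Over all 21830 genes, edgeR called 0 differences between the populations, with 1661 (7.61%) at an unadjusted p under 0.05. limma voom also called 0 and DESeq2 called 6, all with a lower effect in CD150-positive cells. The smallest p belonged to Ak1, which was higher by 1.57 in CD150-positive and by 2.84 (SE 0.16) in CD150-negative cells, a difference of -1.36 (SE 0.28, adjusted p = 0.3674). St8sia6, a sialyltransferase, stood at -1.05 and 1.97 in the 2 populations, Igf2bp2, an RNA-binding protein, at -0.86 and 0.80, and Mmrn2, an extracellular matrix protein, at -1.17 and 1.49. In these 3 the fitted value was below 0 in CD150-positive and above 0 in CD150-negative cells. DESeq2 called all 4, and also Bc1 and Olfr98.

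**Figure D5:**
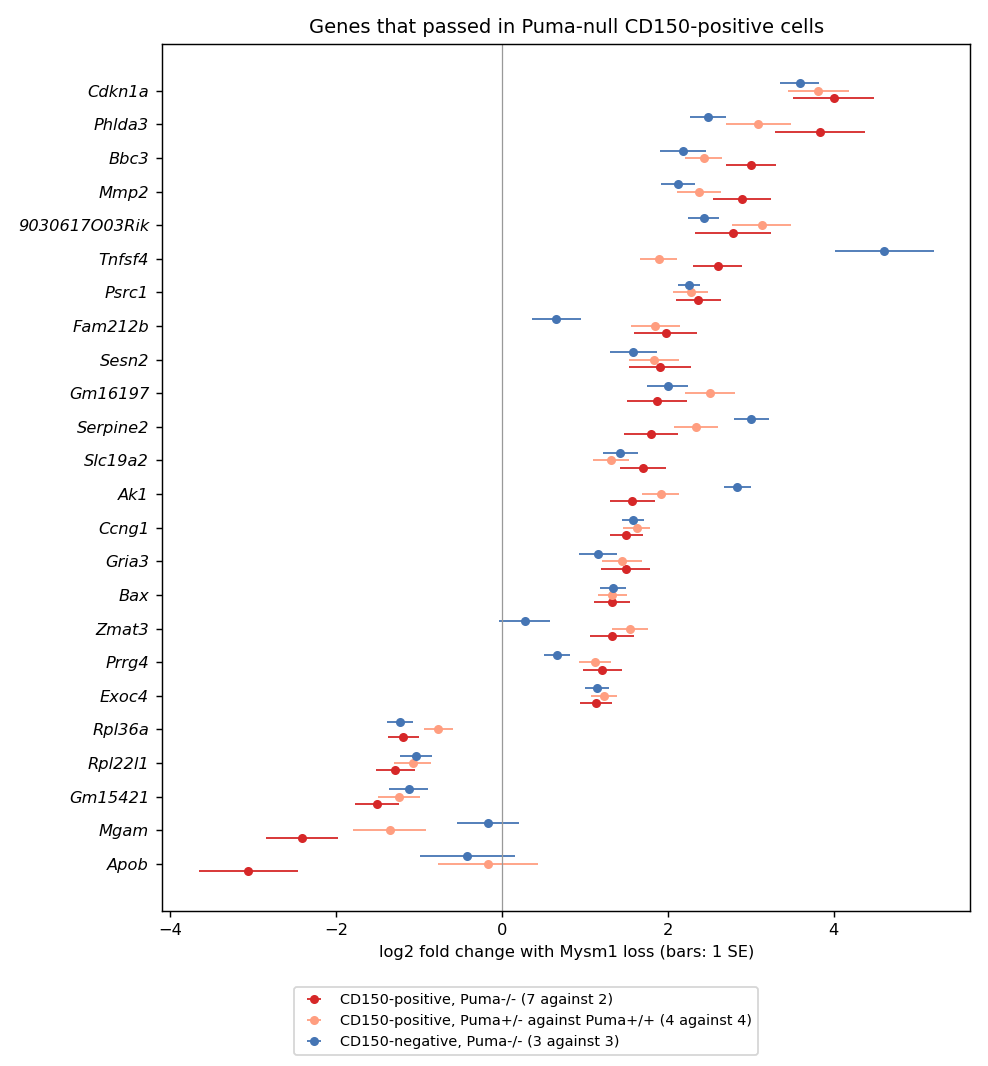
Log2 fold change with Mysm1 loss (x axis, bars are 1 SE) of the 24 genes that passed in Puma-null CD150-positive cells, in that comparison, in CD150-positive cells with Puma and in CD150-negative Puma-null cells. The 19 higher genes lie to the right of 0 in all 3, and Apob lies far to the left only in the first.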

How the data were processed

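RNA from sorted cells was rRNA-depleted and turned into stranded libraries by a kit for small amounts of RNA, per the labels' protocols, and read as pairs of 50 bases. The authors deposited whole-number gene counts for each library, and a table of CPM (counts scaled to library size) for 12578 genes in all 29 libraries. The submitters' processing notes name FastQC, Trimmomatic 0.33, TopHat2 2.0.9, Bowtie 1.0.0, featureCounts, edgeR and R 3.4.2, and the build mm9. The annotation used for counting, its strand setting and its treatment of reads with several matches are not given in the sources used here.

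Counts of 23366 genes were analysed in R 4.3.3 with edgeR 4.0.16: TMM scaling, filterByExpr by group, and the quasi-likelihood F test with Benjamini-Hochberg adjustment at 0.05. All 17 CD150-positive libraries in 4 genotype groups entered the fit, so that 8 further libraries help to estimate the spread, and the contrast uses 7 against 2. The fit was repeated with C1-4 or C2-5 left out, where the lone control is assumed to vary like the other groups. Printed CPM are TMM-scaled, not scaled by gene length, and log2 fold changes are edgeR's (prior count shrinkage applies to genes near 0). SE is the absolute log2 fold change over the root of the F statistic. Differences between backgrounds were tested in the same fit, and between populations in a fit of all 29 libraries. Alternatives used DESeq2 1.42.0, limma 3.58.1, RLE factors, no filter, a background covariate, fewer libraries and limma-trend on the deposited CPM (log2 after adding 1, for 12547 genes whose mean CPM reached 1). The scripts were tested on simulated data.

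The members and the 40 gene lists (581 entries, 4 without a match) were chosen with earlier results of these data known. Genes named are Mysm1, Bbc3, up to 12 kept genes per direction averaging 2 or more in log2 CPM and with no overlap between the groups, up to 4 members of each list described with the smallest p, and the 4 smallest p of each difference test. Genes outside it, among them the other genes that passed, are said to be so. Gene spans are from an NCBIM37 (mm9) annotation, promoter windows from RefSeq.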

Additional observations from a re-analysis of the deposited data

Results flagged for a closer look

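In 6 of the values looked at (3 of 75 genes and 3 of 40 list sums), 1 of the 7 Mysm1-/-Puma-/- libraries lay far from the other 6 for the width of the group. Chance flags about 1 in 20 groups of this size. Ccng1 was 317.9 CPM in B3, against 225.3 to 258.0 CPM in the others. B5, which had the highest background of the 7, stood apart in 3 values: Zmat3 at 121.2 CPM against 70.48 to 86.2, Gm16197 at 19.17 CPM against 11.21 to 14.54, and the summed p53 death targets at 909.8 CPM against 695.0 to 775.7. The summed B lineage genes were 2712 CPM in B1 against 116.1 to 1191 CPM, and the summed mitochondrial ribosomal protein genes 2861 CPM in B3 against 2430 to 2606 CPM. In Ccng1, Zmat3 and Gm16197 the other 6 libraries also lay above both controls.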

How the results depend on the processing

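The number of genes called against both controls was 24. It was 107 (73 higher, 34 lower) by DESeq2, 58 (37 and 21) by limma voom, 64 (55 and 9) by limma-trend on the deposited CPM, 13 (all higher) after dropping the libraries named P or W, and 9 (6 and 3) after dropping those of high background (B5, C2-5 and D2). With RLE factors it was 20, split 13 to 7 in place of 19 to 5. Leaving out 1 library gave 5 to 30 calls, with 7 without C1-4 and 5 without C2-5. The number kept against each control was 5, and was 15 by DESeq2, 1 by limma voom, 0 without the P and W libraries and 1 to 5 when 1 of the 7 libraries was left out. Fitted on the compared libraries alone 4 were kept, Bbc3 and Cdkn1a from the 5 and also Eda2r and Phlda3. No kept count could be made without the libraries of high background, since 1 control was left. Differences with Puma stayed at 0 under every setting run. Differences between populations were 6 by DESeq2 and 7, all with a lower effect in CD150-positive cells, by limma voom with the library name as a replicate block (consensus correlation 0.195). Same-named libraries of the 2 populations deviated together with r of 0.042, 0.261 and -0.065, and libraries of different names with r of -0.325 to 0.264. Only B1, B3 and B5 were compared, so these values cannot decide whether the names are pairs. The main fits did not take them as pairs. The 7 and the 2 libraries share no replicate name. Of 3000 values of 168 named genes under alternatives, 0 changed direction while called, 125 lost and 35 gained the threshold, and Bbc3, Mmp2, Tnfsf4 and Psrc1 were called under all of them. Cdkn1a missed it only without the libraries of high background (adjusted p = 0.0555). The causes of these shifts were not tested. With 2 controls, of which C2-5 had the lowest depth, small changes and genes near 0 could not be resolved.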
